A study of Mus musculus with 9 samples.

Results

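Hepcidin is a peptide hormone that the liver secretes to limit the entry of iron into blood. The genes described here are the pair of mouse hepcidin genes, Hamp and Hamp2, and 8 genes through which liver cells sense, take up or export iron. These 8 are Tfrc, Tfr2, Hfe, Hfe2 (now Hjv), Bmp6, Id1, Smad7 and Slc40a1. The 10 genes were chosen by symbol out of 23337 genes in the deposited count tables, and all 10 were present and passed the filter on low counts. They were picked with earlier results of these libraries known, among them the level of Hamp2 in each diet group, so their fold changes and adjusted p-values describe these livers and are no independent support for a pattern. RNA was sequenced from livers of 9 wild-type mice dissected in the fed state, 3 for each diet. The diets were a normal diet (ND), a 60% high-fat diet (HFD) and the same HFD with 0.25% hyodeoxycholic acid (HFD_HDCA), a secondary bile acid, each given for 12 weeks from 8 weeks of age. All mice carried the same genotype, and the HFD_HDCA mice also ate the high-fat diet, so HFD_HDCA against HFD is the comparison that differs by the bile acid. Nothing in the labels gives the sex, strain or cage of the mice. The edgeR p-values set differences between diet groups against the spread within groups, which is estimated with help from all genes. They cover these 9 samples only.

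Hepcidin binds ferroportin, the iron exporter encoded by Slc40a1, and causes its loss from the surface of gut cells, macrophages and hepatocytes. In hepatocytes hepcidin transcription is driven by bone morphogenetic proteins (BMPs), above all BMP6 from sinusoidal endothelial cells, which act on SMAD proteins through receptors and the co-receptor hemojuvelin, encoded by Hfe2. HFE and transferrin receptor 2 report the iron load of circulating transferrin to this pathway, while interleukin 6 raises hepcidin through STAT3. Mice carry a pair of hepcidin genes, and the peptide of Hamp is the iron hormone, while that of Hamp2 does not have the same effect on iron.

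Hamp and Hamp2 lie 18.2 kb apart on the minus strand of chromosome 7, at chr7:30942368-30944029 and chr7:30922372-30924181 in GRCm38.p6, the assembly of mm10. Their promoters are shown because the 2 genes, close to identical in sequence, had different values across the diets. The 250 bases before each start site are given on the minus strand from the RefSeq promoter table, at chr7:30944030-30944279 for Hamp and chr7:30924182-30924431 for Hamp2. Capitals mark the BMP responsive element and the STAT match of Hamp, and the bases aligned with them in Hamp2.
Hamp: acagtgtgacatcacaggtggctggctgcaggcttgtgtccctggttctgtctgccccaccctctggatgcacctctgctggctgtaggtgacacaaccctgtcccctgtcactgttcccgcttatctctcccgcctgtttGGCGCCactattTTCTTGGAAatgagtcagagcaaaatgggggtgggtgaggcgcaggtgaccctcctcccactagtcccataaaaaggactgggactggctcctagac
Hamp2: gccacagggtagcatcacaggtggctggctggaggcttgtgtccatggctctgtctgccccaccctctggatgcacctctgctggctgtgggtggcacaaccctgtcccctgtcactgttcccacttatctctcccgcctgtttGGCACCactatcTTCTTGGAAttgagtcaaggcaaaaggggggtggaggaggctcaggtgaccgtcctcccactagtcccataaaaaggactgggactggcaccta

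The 300-base RefSeq windows of the promoters, which run 50 bases past the start, had 92.9% identity over 297 aligned bases. The BMP responsive element, searched as GGCGCC on both strands, began at position -109 in Hamp. Hamp2 had no GGCGCC in its window, and the aligned bases carried the substitution G4A, counted from 1 at the first base of the element with the base of Hamp first. Of 32851 promoters of this length 11.9% held GGCGCC. The STAT motif, searched as TTCNNNGAA on both strands, began at -97 in Hamp and -94 in Hamp2 and occurred in 8.3% of the promoters. The E-box CACGTG was in neither window and in 7.15% of all promoters. These matches and their absence describe the letters of the windows and say nothing of binding.

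Reads on genes ran from 16994353 to 20509203 per library, and 3 counts, the limit that a count of 0 allows, corresponded to 0.152 to 0.182 CPM. CPM are counts scaled to a common library size with TMM factors, and this limit covers counting error only. The strand setting of the counting was not given in the sources used here, so reads of a gene and of an antisense partner cannot be told apart in these values. Before the results, 2 livers need to be named. The clock gene Dbp was at 85.8 CPM in HFD 1, where its group mates had 2.27 and 1.41 CPM. Dbp was also highest in ND 1 (14.57 CPM against 3.58 and 0.752) and in HFD_HDCA 1 (10.54 CPM against 2.79 and 3.01). Arntl, another clock gene, was lowest in library 1 of each group, at 17.3, 4.71 and 25.3 CPM in ND, HFD and HFD_HDCA. The clock genes thus shifted with the library number in every group, most in HFD 1, and the cause was not tested. In HFD_HDCA 1 the acute phase gene Saa1 was at 3371 CPM, where its group mates had 23.4 and 38.0 CPM. The summed CPM of 10 macrophage markers was 177 in HFD 2 and 1047 in HFD 3, against 425 to 827 in the other 7 libraries, and that of 10 endothelial markers was 243 in HFD 2 against 387 to 491. All 7 hepatocyte markers were abundant, with a sum between 82774 and 120380 CPM. In bulk liver, fewer cells of a type and less RNA per cell cannot be told apart.

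Between HFD and ND, 1 of the 10 genes passed the threshold, edgeR's quasi-likelihood test with an adjusted p under 0.05 over 12587 genes. This was Hamp2, which rose, against 0.953% of all tested genes called in either direction and 0.477% called higher, the same share as called lower. Between HFD_HDCA and HFD, 1 gene passed, Tfrc, which fell, against 3.4% of all genes in either direction, 1.73% called lower and 1.67% called higher. Between HFD_HDCA and ND, 1 gene passed, Id1, which rose, against 6.47% of all genes in either direction, 3.65% called higher and 2.82% called lower. At an unadjusted p under 0.05 in edgeR the counts were 4 of 10 in each comparison, against 11.5, 22 and 26.1% of all genes in the order above. The median log2 fold change of the 10 genes was 0.26, -0.14 and 0.09 in the order above, beside 0.02, -0.00 and 0.03 for all genes tested. The 3 comparisons share libraries, the HFD livers entering the first with a positive and the second with a negative sign, so opposite signs in these 2 are not separate observations. They also share the estimate of the spread. Leaving out a liver of the third group can therefore change the adjusted p of a comparison while its fold change stays nearly the same.

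**Figure D1:**
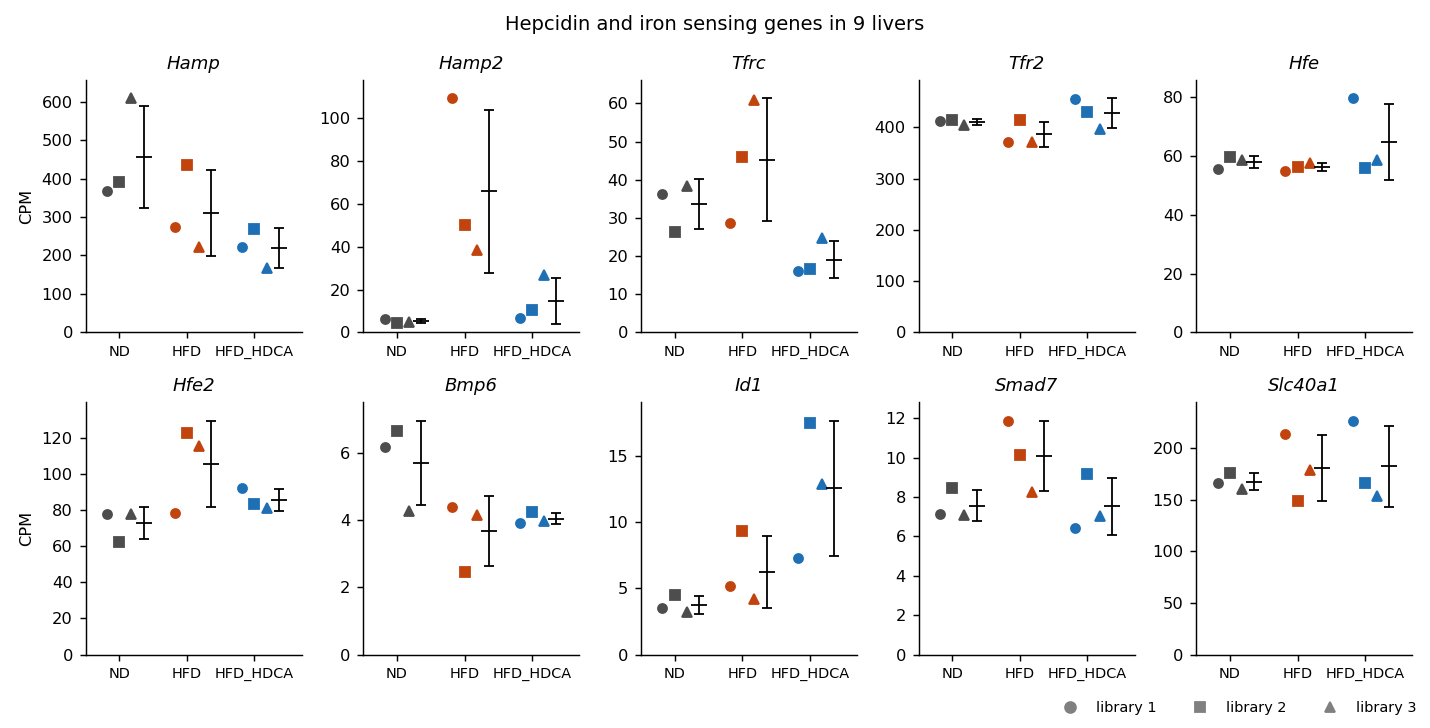
CPM of the 10 genes (y axis, from 0, a scale for each gene) in the 9 livers by diet group; symbols are libraries, and bars give the mean ± SD of 3 livers. Hamp2 stands at 38.4 to 109 CPM in HFD and at 4.55 to 6.35 in ND, while Tfr2 stays between 372 and 455 CPM in all 9 livers.

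The plot of all members by liver shows which genes had diet groups apart in at least 1 comparison (Hamp, Hamp2, Tfrc, Hfe2, Bmp6 and Id1) and which overlapped in all 3 (Tfr2, Hfe, Smad7 and Slc40a1). Counts of genes whose libraries did not overlap were 2 of 10 for HFD against ND, 2 of 10 for HFD_HDCA against HFD and 6 of 10 for HFD_HDCA against ND. Among all genes tested the same held for 20.1, 22.4 and 33.9% in that order.

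Hamp encodes the iron hormone. Hamp counts were 367, 392 and 608.5 CPM in the ND livers, 275, 435 and 221 CPM in the HFD livers, and 222, 269 and 167 CPM in the HFD_HDCA livers. All 3 HFD_HDCA livers lay below all 3 ND livers, while the HFD livers overlapped with both groups. The group means were 456 ± 133, 310 ± 111 and 219 ± 51.3 CPM (SD, n = 3 each). HFD_HDCA against ND gave a log2 fold change of -1.05 ± 0.29 (SE) and missed the threshold (edgeR adjusted p = 0.0632). DESeq2 gave an adjusted p of 0.0027 for the same comparison, and over all the alternatives the adjusted p ran from 0.0027 to 0.175. In edgeR it passed without HFD 2 (0.0311) and without HFD 3 (0.0481), livers that are outside this comparison. HFD against ND was -0.55 ± 0.29 (SE) with an edgeR adjusted p of 0.522, and HFD_HDCA against HFD was -0.50 ± 0.29 (SE) with 0.338. The last of these was -0.18 without HFD 2, the HFD liver with the highest Hamp. In HFD_HDCA 1, where Saa1 and Lcn2 (331 CPM) were high, Hamp lay between the other HFD_HDCA livers.

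Hamp2, the paralog of Hamp, was highest in HFD. It had 6.35, 4.55 and 4.69 CPM in the ND livers, 109, 49.95 and 38.4 CPM in the HFD livers, and 6.78, 10.6 and 26.7 CPM in the HFD_HDCA livers. Every HFD liver was above every other liver, and the lowest HFD_HDCA liver lay just above the highest ND liver. These values rest on 81 to 122 reads per ND library, 738 to 2016 per HFD library and 112 to 444 per HFD_HDCA library. The means were 5.20 ± 1.001, 65.9 ± 38.0 and 14.7 ± 10.6 CPM (SD, n = 3 each), and the log2 fold change of HFD against ND was 3.66 ± 0.60 (SE, edgeR adjusted p = 0.0329). Only 8 of the 12587 tested genes had a larger rise by fold. HFD_HDCA against HFD gave -2.16 ± 0.55 (SE) and missed the threshold in edgeR (adjusted p = 0.0753), with 0.00904 in DESeq2. Without HFD_HDCA 3, the HFD_HDCA liver with the highest Hamp2, it was -2.92 with an edgeR adjusted p of 0.0423. Without HFD 1, the liver with the highest Hamp2, it was -1.59 (edgeR adjusted p = 0.104), and without HFD 1 and HFD_HDCA 1 together -1.22 (0.137). HFD_HDCA against ND gave 1.498 ± 0.58 (SE, edgeR adjusted p = 0.152). This value was 0.74 without HFD_HDCA 3 (edgeR adjusted p = 0.395), and 1.84 without HFD 1 and HFD_HDCA 1 together, where it passed (0.0481).

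Whether the rise of Hamp2 in HFD passed the threshold depended on the fit. Of all 17 alternatives, which include DESeq2 and limma, 7 called the rise, with adjusted p from 6.59e-07 to 0.180. The call stood in 3 of the 9 edgeR fits that left out a library, with adjusted p from 0.0128 to 0.180 and log2 fold changes from 3.08 to 3.93. Leaving out any of ND 1, ND 2, ND 3, HFD 2, HFD 3 or HFD_HDCA 2 ended it, with adjusted p of 0.122, 0.158, 0.180, 0.0931, 0.0631 and 0.0543. Without HFD 1, the liver with the highest Hamp2 and the highest Dbp, the log2 fold change was 3.08 and the edgeR adjusted p was 0.0375. Hamp2 is known to be transcribed in mouse pancreas too. Of 10 pancreatic acinar markers 5 were at 0 in all 9 livers (Cela3b, Cpb1, Amy2a5, Prss2 and Ptf1a), and the list's sum of 17.6 to 35.3 CPM came almost wholly from Cela1, with means of 28.8, 29.8 and 21.4 CPM in ND, HFD and HFD_HDCA. These zeros are of the count tables, which also list globin genes at 0 that the FPKM tables hold. In FPKM, 4 of the 5 were again at 0 in every liver, and Amy2a5 was at 0.0178 to 0.0515 FPKM.

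The spliced transcripts of Hamp and Hamp2, 410 and 420 bases long in GENCODE, had 94.6% identity over 410 aligned bases, with a longest shared run of 87 bases. Of the 391 windows of 30 bases in Hamp2 132 also occurred in Hamp, and of 371 windows of 50 bases 60 did. Counts of the 2 genes are therefore uncertain where reads of one could be given to the other, which was not tested. Reads without a unique alignment were left out of the counts. They were 16.59 to 19.44% of a file in ND, 13.27 to 13.96% in HFD and 14.55 to 15.97% in HFD_HDCA. How many of them were hepcidin reads was not tested. Hamp2 made up 1.70, 1.15 and 0.764% of the counts of both genes in the ND livers, 28.4, 10.3 and 14.8% in the HFD livers, and 2.96, 3.798 and 13.8% in the HFD_HDCA livers. The HFD livers did not overlap with the ND livers in this share, and HFD_HDCA 3 lay among the HFD livers. An exact two-sided permutation test of 3 against 3 cannot go below p = 0.1, and it gave 0.1 for HFD against ND, 0.2 for HFD_HDCA against HFD and 0.1 for HFD_HDCA against ND. The summed level of both genes was 461 ± 132, 376 ± 113 and 234 ± 43.4 CPM (SD, n = 3 each) in ND, HFD and HFD_HDCA. For the sum the exact permutation test gave p = 0.5 for HFD against ND, 0.2 for HFD_HDCA against HFD and 0.1 for HFD_HDCA against ND.

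The Cufflinks tables, whose FPKM are fragments scaled by transcript length and depth, gave Hamp2 a smaller rise. Hamp2 was at 37.9, 33.5 and 42.8 FPKM in the ND livers, 369, 174 and 136 FPKM in the HFD livers, and 27.9, 45.1 and 88.6 FPKM in the HFD_HDCA livers. By FPKM the ND and HFD_HDCA livers overlapped. The ratio of the HFD to the ND mean was 5.94 by FPKM and 12.7 by CPM. FPKM per CPM ran from 5.97 to 9.13 for Hamp2 in ND but from 3.38 to 3.53 in HFD, while for Hamp it stayed between 3.44 and 4.02 in all 9 livers. The 2 units thus differed most in the ND livers. With limma on log2(FPKM + 0.1) the log2 fold change was 2.44 with an adjusted p of 0.0525.

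**Figure D2:**
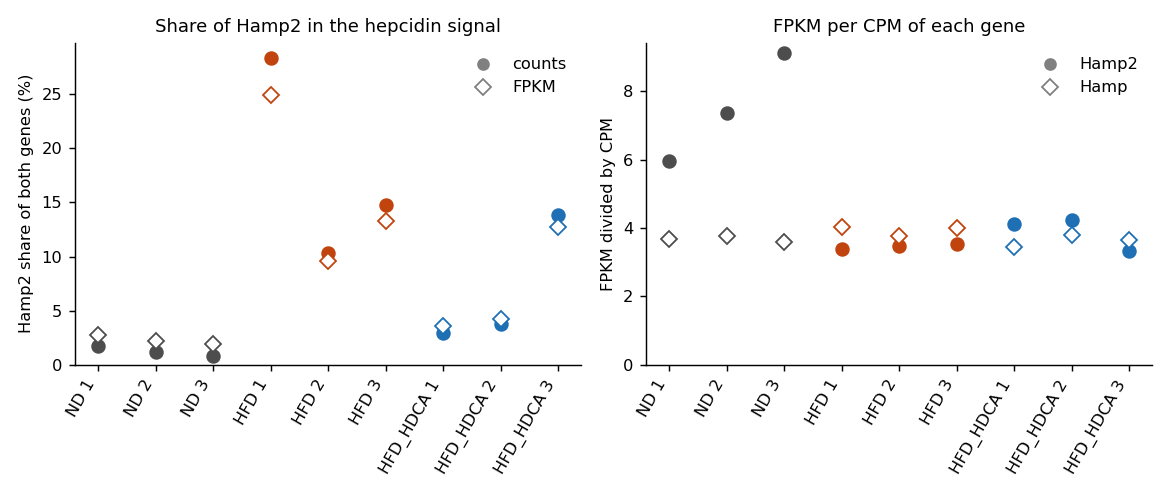
Left, share of Hamp2 in the summed signal of Hamp and Hamp2 (percent) in each liver, by counts (filled circles) and by FPKM (open diamonds). Right, FPKM divided by CPM for Hamp2 (filled circles) and Hamp (open diamonds); the Hamp2 points of ND stand at 5.97 to 9.13 and all Hamp points between 3.44 and 4.02.

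The plot of the Hamp2 share shows that counts and FPKM placed the livers in the same order, with HFD 1 highest, and that FPKM gave Hamp2 more signal per count in the ND livers than in the others.

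The genes that report transferrin iron to hepcidin varied little. Tfr2, encoding transferrin receptor 2, was at 413, 415 and 404 CPM in the ND livers, 372, 414 and 372 CPM in the HFD livers, and 455, 431 and 398 CPM in the HFD_HDCA livers. The groups overlapped in all 3 comparisons, and the log2 fold changes lay between -0.09 and 0.15 with SE of 0.11 (edgeR adjusted p from 0.457 to 0.822). Hfe, encoding the partner protein of the transferrin receptors, was at 55.6, 59.7 and 58.4 CPM in ND, 54.7, 56.1 and 57.5 CPM in HFD, and 79.5, 55.7 and 58.5 CPM in HFD_HDCA. Apart from HFD_HDCA 1, the library with high Saa1, all livers lay within 54.7 to 59.7 CPM. The log2 fold change of Hfe for HFD_HDCA against HFD was 0.20 ± 0.13 (SE, edgeR adjusted p = 0.394) with that liver and 0.04 without it.

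Hfe2, which encodes the BMP co-receptor hemojuvelin, was at 78.0, 62.3 and 77.8 CPM in the ND livers, 78.1, 123 and 115 CPM in the HFD livers, and 92.1, 83.2 and 81.1 CPM in the HFD_HDCA livers. HFD 2 and HFD 3 were the highest of the 9 livers, while HFD 1 lay level with the upper ND livers. The log2 fold change of HFD against ND was 0.54 ± 0.17 (SE) and missed the threshold (edgeR adjusted p = 0.221). It was 0.71 without HFD 1 and then passed (adjusted p = 0.0269). Without HFD 1 and HFD_HDCA 1 together it was 0.69 (adjusted p = 0.0123), and HFD_HDCA against HFD was -0.52 (adjusted p = 0.0381) in place of -0.30 ± 0.17 (SE, adjusted p = 0.315), all in edgeR. All HFD livers lay above all ND livers, HFD 1 only by little (78.05 CPM against at most 77.96 in ND). The threshold was passed only where HFD 1 was left out.

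Bmp6, the main ligand for hepcidin in mouse liver, was low. Its values were 6.19, 6.67 and 4.28 CPM in the ND livers, 4.39, 2.48 and 4.17 CPM in the HFD livers, and 3.94, 4.24 and 3.97 CPM in the HFD_HDCA livers. ND 1 and ND 2 were the highest of the 9 livers and HFD 2 the lowest. HFD against ND gave a log2 fold change of -0.64 ± 0.25 (SE, edgeR adjusted p = 0.346), and HFD_HDCA against ND gave -0.50 ± 0.25 (SE, adjusted p = 0.230) with libraries that did not overlap. The endothelial marker sum was also lowest in HFD 2, at 243 CPM, against 439 to 491 in ND, 423 and 484 in HFD 1 and HFD 3, and 387 to 439 in HFD_HDCA. None of the 10 endothelial markers was at 0 in all livers. Without HFD 2 the log2 fold change of Bmp6 for HFD against ND was -0.42 (edgeR adjusted p = 0.619). The part of endothelial content in these values was not tested.

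Id1 encodes an inhibitor of helix-loop-helix transcription factors and is a direct target of BMP and SMAD signalling. It was at 3.49, 4.50 and 3.24 CPM in the ND livers, 5.20, 9.29 and 4.17 CPM in the HFD livers, and 7.27, 17.5 and 12.9 CPM in the HFD_HDCA livers. All HFD_HDCA livers lay above all ND livers, and the HFD livers overlapped with both groups. The means were 3.74 ± 0.667, 6.22 ± 2.71 and 12.5 ± 5.12 CPM (SD, n = 3 each). Id1 rose in HFD_HDCA against ND, with a log2 fold change of 1.74 ± 0.37 (SE, edgeR adjusted p = 0.0244). This call stood in 5 of the 9 edgeR fits without a library, where the adjusted p ran from 0.00889 without HFD_HDCA 1 to 0.113 without ND 1. It ended without ND 1, ND 2, ND 3 or HFD_HDCA 3, with log2 fold changes of 1.65 to 1.90 in these 4 fits. HFD against ND was 0.73 ± 0.37 (SE, edgeR adjusted p = 0.510) and HFD_HDCA against HFD was 1.01 ± 0.35 (SE, adjusted p = 0.139). In HFD_HDCA the highest Id1 went with the highest Hamp, in HFD_HDCA 2, while across the groups the means of Id1 and Hamp ran in opposite order.

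Smad7, which encodes an inhibitory SMAD induced by the same pathway, was at 7.13, 8.46 and 7.11 CPM in the ND livers, 11.9, 10.2 and 8.28 CPM in the HFD livers, and 6.42, 9.18 and 7.04 CPM in the HFD_HDCA livers. HFD 1 and HFD 2 were the highest of the 9, and all groups overlapped. The log2 fold change was 0.42 ± 0.19 (SE, edgeR adjusted p = 0.428) for HFD against ND, -0.42 ± 0.19 (SE, 0.221) for HFD_HDCA against HFD and -0.00 ± 0.19 (SE, 0.995) for HFD_HDCA against ND. The difference between Id1 and Smad7 in the last comparison was not tested.

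Tfrc encodes transferrin receptor 1, which carries iron-loaded transferrin into cells. It was at 36.3, 26.3 and 38.4 CPM in the ND livers, 28.7, 46.0 and 60.9 CPM in the HFD livers, and 16.1, 16.5 and 24.7 CPM in the HFD_HDCA livers. The HFD_HDCA livers were the lowest 3 of the 9, and the ND and HFD livers overlapped. The means were 33.7 ± 6.48, 45.2 ± 16.1 and 19.1 ± 4.88 CPM (SD, n = 3 each). Tfrc fell in HFD_HDCA against HFD, with a log2 fold change of -1.24 ± 0.28 (SE, edgeR adjusted p = 0.0473). The call stood in 1 of the 9 edgeR fits that left out a library, the fit without HFD 1 (adjusted p = 0.0104). In the other 8, which each left out ND 1, ND 2, ND 3, HFD 2, HFD 3, HFD_HDCA 1, HFD_HDCA 2 or HFD_HDCA 3, the adjusted p lay between 0.0633 and 0.129 and the log2 fold change between -1.47 and -0.97. HFD_HDCA against ND gave -0.82 ± 0.28 (SE, edgeR adjusted p = 0.110, DESeq2 adjusted p = 0.0312, and 0.0452 in edgeR without HFD 1), and HFD against ND gave 0.42 ± 0.28 (SE, edgeR adjusted p = 0.630).

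Red cell precursors also carry much transferrin receptor 1. Of 10 erythroid markers, the counts of Hba-a1, Hba-a2, Hbb-b1, Hbb-b2 and Rhag were 0 in all 9 count tables, and the sum of the list, 87.6 to 174 CPM, came mostly from Alas2, at 166 ± 5.72, 125 ± 30.1 and 115 ± 34.2 CPM in ND, HFD and HFD_HDCA (SD, n = 3 each). In the FPKM tables the globin gene Hba-a1 was present, at 241 to 494 FPKM in ND, 169 to 757 in HFD and 491 to 1608 in HFD_HDCA, the highest value being that of HFD_HDCA 1, where Tfrc was lowest. The part of blood cells in the values of Tfrc was not tested.

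The transcript of Tfrc is stabilised in cells short of iron by iron regulatory proteins, which bind hairpins called iron responsive elements in its 3′ UTR. A hairpin of this kind in the 5′ UTR of ferroportin mRNA blocks its translation instead. The hairpins are shown because among the 10 genes only Tfrc and Slc40a1 held a match in GENCODE transcripts. The pattern searched on the sense strand was C, then 5 bases, then CAGTG and 1 more base, then 5 bases that pair with the first 5, with G-U pairs allowed. It was found in 294 of 21877 genes with a protein-coding transcript, or 1.34%, and capitals mark the loop of 6 bases. The first 4 lie on the plus strand in the 3′ UTR of Tfrc and the last on the minus strand in the 5′ UTR of Slc40a1, all in GRCm38.
Tfrc, chr16:32631225-32631241: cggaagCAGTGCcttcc
Tfrc, chr16:32631604-32631620: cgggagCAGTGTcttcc
Tfrc, chr16:32631669-32631685: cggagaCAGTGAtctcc
Tfrc, chr16:32631716-32631732: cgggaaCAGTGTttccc
Slc40a1, chr1:45925471-45925487: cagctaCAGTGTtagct

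Slc40a1, encoding the exporter ferroportin, was at 166, 176 and 160 CPM in the ND livers, 213, 149 and 179 CPM in the HFD livers, and 226, 166 and 154 CPM in the HFD_HDCA livers. The groups overlapped in all 3 comparisons, with log2 fold changes of 0.11, 0.01 and 0.12 (SE 0.17 each, edgeR adjusted p from 0.680 to 0.971). Kupffer cells carry much ferroportin, and the liver with the lowest Slc40a1, HFD 2, also had the lowest macrophage marker sum, 177 CPM, while HFD_HDCA 1, with the highest, had the second highest sum, 827 CPM. HFD 3, with a macrophage sum of 1047 CPM, had 179 CPM of Slc40a1. Much of that sum came from Cd5l (282 CPM), Marco (228 CPM, against at most 20.5 in the other livers) and Emr1 (112 CPM). The Kupffer cell marker Clec4f went the other way in HFD 3, at 78.1 CPM against 119 to 137 in ND. Vsig4, at 43.5 CPM, was close to ND (38.1 to 43.3), and the other listed markers were above all ND livers. None of the 10 macrophage markers was at 0 in all livers, and the part of macrophage content was not tested.

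**Figure D3:**
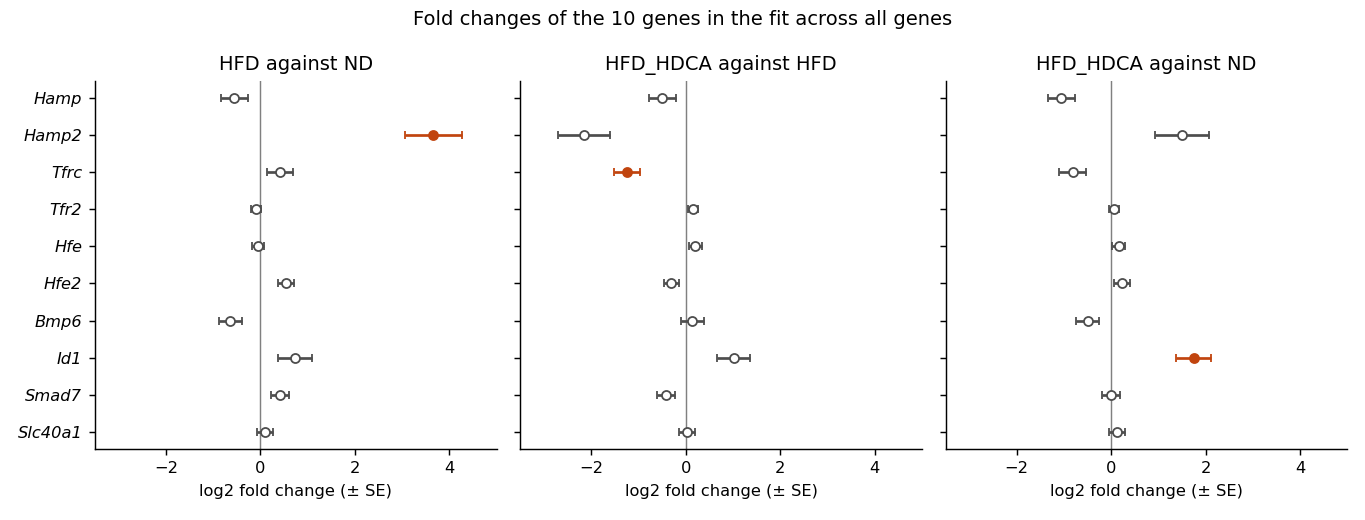
Log2 fold change ± SE (x axis) of the 10 genes in 3 comparisons of diet groups, 3 livers each, from the edgeR fit across all genes; filled symbols passed an adjusted p under 0.05. Hamp2 passed in HFD against ND (3.66), Tfrc in HFD_HDCA against HFD (-1.24) and Id1 in HFD_HDCA against ND (1.74).

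The plot of fold changes places Hamp2 and Id1 far from 0 with wide errors, and Tfr2, Hfe and Slc40a1 between -0.09 and 0.20 in every comparison.

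Levels of different genes can be compared only per length, so FPKM of the deposited tables were used for the order of levels. In ND the order was Hamp at 1669 ± 453, Tfr2 at 102 ± 3.85, Hamp2 at 38.1 ± 4.65, Slc40a1 at 36.01 ± 2.73, Hfe2 at 26.4 ± 2.75, Hfe at 25.4 ± 1.32, Tfrc at 4.96 ± 0.840, Id1 at 3.70 ± 0.722, Bmp6 at 1.70 ± 0.365 and Smad7 at 1.25 ± 0.155 FPKM (SD, n = 3 each). In ND the neighbours Hamp2 and Slc40a1, Hfe2 and Hfe, Tfrc and Id1, and Bmp6 and Smad7 had overlapping livers. The place of Hamp2 in ND is uncertain, because its FPKM per CPM was 5.97 to 9.13 there and 3.38 to 3.53 in HFD. In HFD Hamp2, at 226 ± 125 FPKM, stood above Tfr2, at 104 ± 3.20 FPKM, in all 3 livers, and in HFD_HDCA below it, at 53.9 ± 31.2 against 106 ± 6.26 FPKM (SD, n = 3 each). Id1, at 12.4 ± 5.46 FPKM in HFD_HDCA, stood there above Tfrc, at 2.81 ± 0.734 FPKM (SD, n = 3 each), the reverse of the order of their means in ND.

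Other genes of the BMP and SMAD pathway were taken from a list of 17, of which 16 were tested. In HFD against ND edgeR called 1 up, Id2, and 0 down, and an unadjusted p under 0.05 was reached by 2 with higher and 3 with lower values. DESeq2 called Id2 up and Smad9 and Atoh8 down there, and limma on FPKM called Id2 up. In HFD_HDCA against HFD edgeR and limma each called 0 up and 1 down, Acvr1, with 4 above and 2 below at the unadjusted threshold in edgeR, while DESeq2 called Bmpr1a, Fgl1 and Smad9 up and Acvr1 down. In HFD_HDCA against ND edgeR called 2 up, Id2 and Fgl1, and 0 down, with 4 above and 4 below at the unadjusted threshold. DESeq2 called the same 2 up and Acvr1 down, and limma called Id2 up. The medians of the list were -0.02, -0.04 and -0.19 on the log2 scale, beside 0.02, -0.00 and 0.03 for all genes. Of all genes tested, edgeR called 0.953, 3.4 and 6.47% in the same order, and 11.5, 22 and 26.1% reached the unadjusted threshold. DESeq2 called 362 of 13014, 1036 of 12355 and 1321 of 13014 genes, and limma 165, 496 and 699 of 11461. Id2, a relative of Id1 and also a BMP target, was at 77.3, 74.4 and 87.6 CPM in the ND livers, 147, 195 and 162 CPM in the HFD livers, and 158, 245 and 237 CPM in the HFD_HDCA livers. Every liver on a high-fat diet lay above every ND liver. Id2 rose in HFD against ND by 1.07 ± 0.18 (SE, edgeR adjusted p = 0.0232) and in HFD_HDCA against ND by 1.42 ± 0.18 (SE, adjusted p = 0.00266). The second call stood in all 9 edgeR fits without a library and the first in 4. The first ended without ND 1, ND 2, ND 3, HFD 2 or HFD 3, with adjusted p from 0.0631 to 0.108.

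Acvr1, encoding a type I receptor through which BMP6 acts on hepcidin, fell in HFD_HDCA against HFD, from 15.3 to 10.7 CPM on average (log2 fold change -0.52 ± 0.12, SE, edgeR adjusted p = 0.0461), a call that stood in 0 of the 9 fits without a library, where the adjusted p ran from 0.0552 to 0.133. Bmpr1a, the other type I receptor of this pathway, was at 54.7 against 41.7 CPM (0.39 ± 0.11, SE, edgeR adjusted p = 0.0797). Fgl1, encoding a hepatokine that antagonises BMP6 in mice, was at 128, 218 and 204 CPM in ND, 242, 217 and 310 CPM in HFD and 1668, 358 and 542 CPM in HFD_HDCA. Fgl1 rose in HFD_HDCA against ND by 2.22 ± 0.54 (SE, edgeR adjusted p = 0.0479). The value was 1.29 without HFD_HDCA 1, the liver with high Saa1, with an adjusted p of 0.0324. The call stood in that fit and without HFD_HDCA 2, and ended in the 7 fits without any other liver, with adjusted p up to 0.171. Against HFD it missed the threshold (edgeR adjusted p = 0.110) and passed without HFD_HDCA 2 (0.0421). Smad9, a receptor SMAD, was at 15.2 ± 5.49 CPM in ND and 5.09 ± 2.03 in HFD, and Atoh8, a transcription factor of the hepcidin pathway, at 25.0 ± 0.989 and 15.5 ± 1.86 CPM (SD, n = 3 each). Their libraries did not overlap, and the edgeR adjusted p was 0.0923 for Smad9 and 0.0860 for Atoh8. Counts of Fam132b, which encodes erythroferrone, the hormone by which red cell precursors lower hepcidin, were 0 in all 9 count tables, and its FPKM were 0.0161 to 0.112. It was named after its values were seen.

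Genes of the interleukin 6 and STAT3 route numbered 11, with 10 tested. In HFD against ND edgeR, DESeq2 and limma on FPKM each called 0 of these. An unadjusted p under 0.05 in edgeR was reached by 1, beside 11.5% of all genes. In each comparison of HFD_HDCA edgeR called 1 up and 0 down, with 3 above and 0 below at the unadjusted threshold against HFD and 3 above and 2 below against ND. The list medians were -0.05, -0.01 and -0.08. DESeq2 called Lepr, Socs3 and Creb3l3 up in both and Il6ra, the interleukin 6 receptor gene, down against ND. Limma on FPKM called 0 against HFD and Lepr against ND. Of all genes tested, edgeR called 3.4% against HFD and 6.47% against ND, and 22 and 26.1% reached the unadjusted threshold. DESeq2 called 1036 of 12355 genes against HFD and 1321 of 13014 against ND. The gene called by edgeR was Lepr, encoding the leptin receptor, which also signals through STAT3. Lepr was at 2.65, 3.96 and 2.54 CPM in the ND livers, 3.85, 2.17 and 3.44 CPM in the HFD livers, and 5.94, 18.9 and 17.9 CPM in the HFD_HDCA livers. It rose by 2.18 ± 0.42 against HFD (SE, edgeR adjusted p = 0.0283) and by 2.22 ± 0.42 against ND (SE, adjusted p = 0.0177), and these calls stood in 5 and 6 of the 9 edgeR fits that left out a liver. With limma on log2(FPKM + 0.1) the value against HFD was 1.73 with an adjusted p of 0.061. In edgeR the call against HFD ended without ND 1, HFD 2, HFD 3 or HFD_HDCA 3 (adjusted p up to 0.0874) and the call against ND without ND 1, ND 3 or HFD_HDCA 3 (up to 0.0905). Socs3, a STAT3 target, was at 4.93 ± 1.04, 5.12 ± 1.66 and 10.6 ± 3.71 CPM (SD, n = 3 each) in ND, HFD and HFD_HDCA, and Creb3l3, encoding a liver transcription factor that can act on Hamp, at 322 ± 22.8, 316 ± 37.4 and 456 ± 53.7 CPM. Against HFD the edgeR adjusted p was 0.0813 for Socs3 and 0.0606 for Creb3l3. The 3 HFD_HDCA livers were above all others for Socs3 and Creb3l3.

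The 13 acute phase genes were all tested, and edgeR and limma on FPKM called 0 in each comparison. At an unadjusted p under 0.05 edgeR had 0 in HFD against ND, 3 above and 1 below in HFD_HDCA against HFD, and 7 above and 1 below in HFD_HDCA against ND. DESeq2 gave an adjusted p for 8 of them and called 0, 0 and 3 (2 up and 1 down) in the same order. Of all genes tested, 22 and 26.1% reached the unadjusted threshold in the comparisons of HFD_HDCA. There DESeq2 called 1036 of 12355 genes against HFD and 1321 of 13014 against ND. The 3 of the list that DESeq2 called were Hp and Itih4, up, and Saa4, down. In HFD_HDCA 1 Saa1 was at 3371 and Lcn2 at 331 CPM, against at most 74.4 and 18.6 CPM in the other 8 livers, and Lcn2 was named after its values were seen. The median log2 fold change of the list was 1.23 against HFD and 1.04 against ND with all livers, and -0.26 and 0.17 without HFD_HDCA 1, a setting chosen after seeing the data. HFD against ND does not include that liver, and its median was 0.26 with it in the fit and 0.25 without. In both fits 10 of the 13 values were positive. Yet 6 of the 13 reached an unadjusted p under 0.05 in edgeR without it, in place of 0. With all livers 11.5% of all genes did so in HFD against ND. Leaving out a liver also changed the edgeR count against ND from 0, to 1 down without HFD_HDCA 1 (Orm1, log2 fold change -1.35, adjusted p = 0.0261) and to 5 up without HFD_HDCA 2 (Apcs, Hp, Lcn2, Saa1 and Saa2, adjusted p from 0.0412 to 0.0485). Without HFD 1 and HFD_HDCA 1 together edgeR called 2 up in HFD against ND, 1 down in HFD_HDCA against HFD, and 1 up and 2 down in HFD_HDCA against ND. Hp, encoding haptoglobin, was at 1869, 2137 and 2293 CPM in the ND livers, 2552, 3186 and 2876 CPM in the HFD livers, and 7190, 2884 and 2892 CPM in the HFD_HDCA livers. All livers on a high-fat diet lay above all ND livers for Hp, and the edgeR adjusted p against ND was 0.086 for HFD_HDCA and 0.662 for HFD. Itih4 was at 1376 to 1628 CPM in ND and 1796 to 4029 CPM in HFD_HDCA (edgeR adjusted p = 0.117). Saa4 was at 298 to 372 CPM in ND and 182 to 255 CPM in HFD_HDCA (edgeR adjusted p = 0.101). Saa3 was at 57.5 CPM in HFD_HDCA 1 and at most 7.64 CPM in the other 8 livers. Hamp at 222 CPM in HFD_HDCA 1 is a single value.

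Iron uptake and storage genes numbered 18, with 16 tested. In HFD against ND edgeR, DESeq2 and limma on FPKM each called 0 of them. At an unadjusted p under 0.05 in edgeR 1 lay above, beside 11.5% of all genes in either direction. In each comparison of HFD_HDCA edgeR and limma called 3 down and 0 up, and DESeq2 called the same 3 and Aco1, the gene of iron regulatory protein 1, down and 0 up. An unadjusted p under 0.05 was reached in edgeR by 0 higher and 5 lower against HFD and by 1 higher and 5 lower against ND, and the medians were -0.10 against HFD and -0.12 against ND. Of all genes tested, edgeR called 1.73% lower against HFD and 2.82% lower against ND, and 22 and 26.1% reached the unadjusted threshold. DESeq2 called 1036 of 12355 genes against HFD and 1321 of 13014 against ND, and limma 496 and 699 of 11461. The 3 genes that fell were the same in both comparisons of HFD_HDCA, Steap3, Steap4 and Slc25a37. STEAP3 and STEAP4 are ferrireductases that reduce ferric iron after transferrin uptake or at the membrane, and mitoferrin 1, encoded by Slc25a37, imports iron into mitochondria. Steap4 was at 127, 109 and 108 CPM in the ND livers, 123, 154 and 128 CPM in the HFD livers, and 69.8, 47.0 and 68.6 CPM in the HFD_HDCA livers. All HFD_HDCA livers lay below all others. Steap4 fell by 1.13 ± 0.16 against HFD (SE, edgeR adjusted p = 0.00825) and by 0.89 ± 0.16 against ND (SE, adjusted p = 0.0126), and these calls stood in 9 and 8 of the 9 fits that left out a liver, the second ending without ND 1 (adjusted p = 0.0657).

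Steap3 was at 31.7, 25.5 and 30.1 CPM in the ND livers, 25.5, 33.3 and 26.2 CPM in the HFD livers, and 20.4, 15.9 and 16.1 CPM in the HFD_HDCA livers, which again lay below all others. It fell by 0.70 ± 0.15 against HFD (SE, edgeR adjusted p = 0.0351) and by 0.74 ± 0.15 against ND (SE, adjusted p = 0.0196). The call against HFD stood without ND 2, HFD 1 or HFD_HDCA 1 and ended without any other liver (adjusted p up to 0.120), and the call against ND ended without ND 1, ND 3 or HFD_HDCA 3 (up to 0.0913). Slc25a37 was at 50.6 ± 2.88 CPM in ND, 49.6 ± 14.0 in HFD and 28.1 ± 2.66 in HFD_HDCA (SD, n = 3 each). It fell by 0.82 ± 0.18 against HFD (SE, edgeR adjusted p = 0.0353) and by 0.85 ± 0.18 against ND (SE, adjusted p = 0.0208). The call against HFD stood without HFD 1 or HFD 2 and ended without any other liver (adjusted p up to 0.109). Without ND 1, ND 2 or ND 3, which are outside this comparison, the log2 fold change stayed at -0.82. That against ND ended without ND 1, ND 2, ND 3, HFD_HDCA 1 or HFD_HDCA 3 (up to 0.0902). The comparisons with HFD and with ND share the HFD_HDCA livers. The ferritin genes were abundant and were not called, with Fth1 at 1389 ± 97.4, 1384 ± 127 and 1326 ± 120 CPM and Ftl1 at 2229 ± 295, 1957 ± 92.3 and 2135 ± 441 CPM (SD, n = 3 each) in ND, HFD and HFD_HDCA. These 2 were named after their values were seen.

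**Figure D4:**
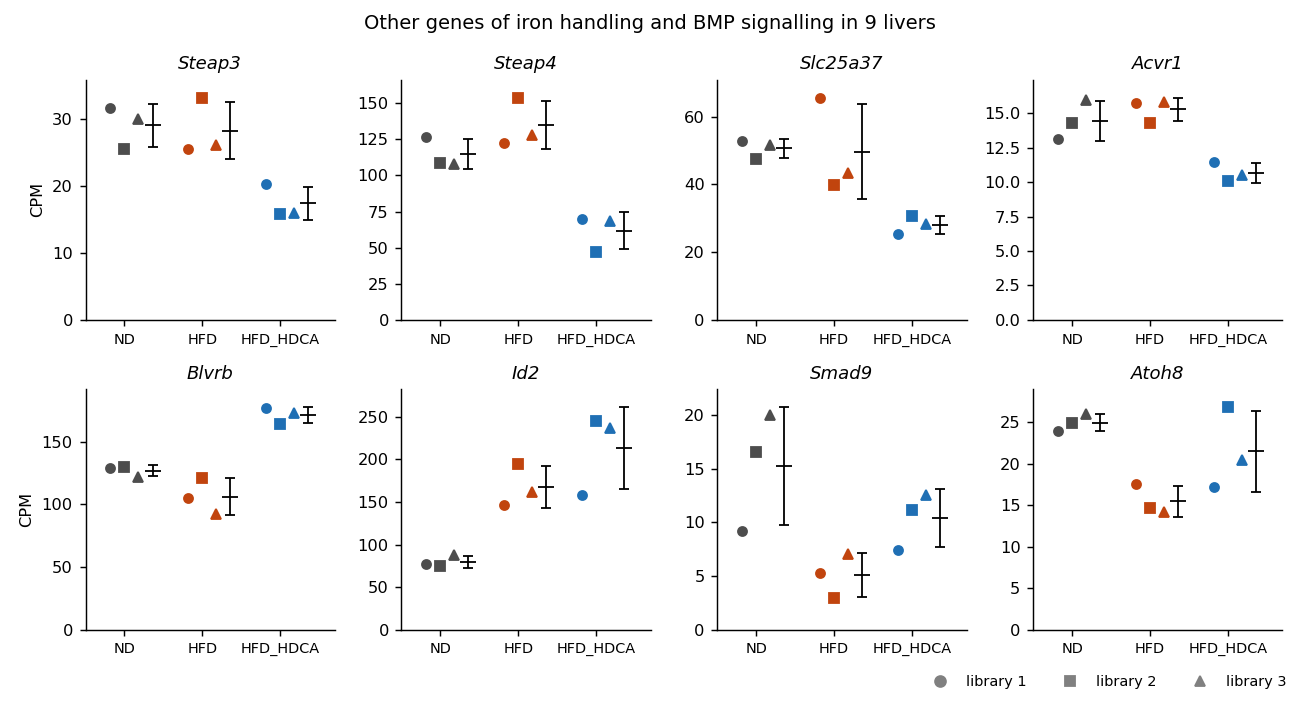
CPM (y axis, from 0, a scale for each gene) of 8 other genes of iron handling and BMP signalling in the 9 livers by diet group; symbols are libraries, and bars give the mean ± SD of 3 livers. Steap3, Steap4, Slc25a37 and Acvr1 have their lowest 3 livers in HFD_HDCA, and Blvrb its highest 3.

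The plot of the other pathway genes shows Steap4 at 47.0 to 69.8 CPM in HFD_HDCA against at least 108 CPM in the other 6 livers. It also shows Smad9 and Atoh8 lower in HFD than in ND, and Id2 higher on either high-fat diet.

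Heme genes numbered 16, with 15 tested, and their medians were 0.07, 0.12 and 0.08. In HFD against ND edgeR, DESeq2 and limma on FPKM each called 0, with 2 below at an unadjusted p of less than 0.05 in edgeR. In HFD_HDCA against ND edgeR and limma called 0 and DESeq2 called 1 up, with 2 above and 1 below at the unadjusted threshold in edgeR. That threshold was reached by 11.5% of all genes in HFD against ND and 26.1% in HFD_HDCA against ND. In the latter edgeR called 6.47% of all genes, DESeq2 1321 of 13014 and limma 699 of 11461. In HFD_HDCA against HFD edgeR called 1 up and 0 down, with 2 above and 2 below at the unadjusted threshold. DESeq2 called Blvrb and Slc48a1 up and Alas1 and Alad down, and limma called Blvrb up and Alad down. Of all genes tested in this comparison, edgeR called 1.67% higher and 1.73% lower, and 22% reached the unadjusted threshold. DESeq2 called 1036 of 12355 genes and limma 496 of 11461. Blvrb encodes biliverdin reductase B. Its means were 106 ± 14.6 CPM in HFD and 171 ± 6.37 CPM in HFD_HDCA (SD, n = 3 each), and the log2 fold change was 0.69 ± 0.12 (SE, edgeR adjusted p = 0.0142). The 3 HFD_HDCA livers were the highest of the 9. The call ended without HFD 3 (0.0506) or HFD_HDCA 3 (0.0569). Against ND the edgeR adjusted p was 0.0541, and it passed without HFD 2, HFD 3 or HFD_HDCA 2 (down to 0.0403).

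For Hamp and for Hamp2, 11015 genes with a mean of at least 1 CPM were compared over the 9 livers. Symbols of Gm with digits, or ending in Rik with or without digits, were left out. The genes compared whose log2 CPM followed Hamp most closely were Gpld1 (Pearson r = 0.95), Sfmbt1 (0.95), Eif4a3 (0.93) and Pkdcc (0.92). Gpld1, encoding a phospholipase secreted by liver, was at 295 ± 26.9, 241 ± 29.8 and 213 ± 10.4 CPM (SD, n = 3 each) in ND, HFD and HFD_HDCA, a narrower range than that of Hamp. For Hamp2 the closest of the genes compared were Fzd1 (0.97), Hao2 (0.96), Cyp2b13 (0.95) and Tmem188 (0.94). Hao2, a peroxisomal hydroxyacid oxidase gene, was at 5.47, 6.82 and 3.96 CPM in the HFD livers, at most 0.156 CPM in ND and 0.363 to 1.14 CPM in HFD_HDCA. Cyp2b13, a cytochrome P450 gene, was at 2.81 to 9.75 CPM in HFD and at most 0.602 CPM in HFD_HDCA. The ND values of Hao2 and Cyp2b13 are at or under the limit that 3 counts give. Both genes reached a mean of 1 CPM only through the HFD livers, where Hamp2 was highest too. In HFD_HDCA their means were 0.638 and 0.279 CPM. The filter thus favoured genes of this shape, and their place here is no support for a link with Hamp2. These correlations describe 9 livers that share 3 diet groups and were taken as the highest of many. Among the 10 genes the r of Hamp with Hamp2 was -0.37 and the highest r of Hamp2 was that with Smad7 (0.71), over the same 9 livers.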

How the data were processed

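Total RNA of 9 livers was made into TruSeq libraries, per the labels' protocols. Per the file names, the authors' counts came from HTSeq with a setting called antisense, and the values were whole numbers read as raw counts. The strand setting was not given in the sources used here. Per the file headers, the authors' Cufflinks tables hold FPKM. TopHat 1.3.2, Cufflinks 2.0.2 and mm10 are listed, with no role, in the submitters' processing notes. The HTSeq version and annotation were not given in the sources used here. Reads in 5 unassigned classes, 27.9 to 36.1% of a file, were left out.

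Counts were tested in R 4.3.3 with edgeR 4.0.16 (filterByExpr with a minimum count of 10, TMM, robust quasi-likelihood F test, all 9 libraries in a model of diet group). P-values were two-sided and adjusted by Benjamini-Hochberg over 12587 genes, with a threshold of 0.05. The pipeline was tested on simulated data. Alternatives were RLE factors, DESeq2 1.42.0, no filter, each library left out, HFD 1 and HFD_HDCA 1 left out, a replicate block, and limma 3.58.1 on log2(FPKM + 0.1) or log2(FPKM + 1).

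The members, lists and tests were chosen with earlier results of these data known. Text names the 10 members, list genes past the threshold, and up to 3 per list and comparison with the smallest p. It also names the 4 genes most correlated with Hamp or Hamp2 among the genes compared. Lcn2, Fth1, Ftl1, Fam132b, genes that DESeq2 or limma called, markers and genes of livers that stood apart were named outside this rule. So were acute phase genes that edgeR called only in a fit that left out livers, such as Orm1 and Apcs. Replicates within a group differed by more than counting error. Symbols and positions were matched to RefSeq (GRCm38.p6), where all 10 members overlapped the files' loci, and transcripts to GENCODE M21.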

Additional observations from a re-analysis of the deposited data

How the results depend on the processing

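Of the 10 genes, the number called in HFD against ND was 1, and it became 0 without the filter on low counts, with the replicate block and with limma on FPKM at a pseudocount of 0.1 or 1, and 2 without HFD 1 and HFD_HDCA 1 together. In HFD_HDCA against HFD it was 1, and became 0 without the filter and with unfiltered FPKM, and 2 with DESeq2, with FPKM at a pseudocount of 0.1 and without HFD 1 and HFD_HDCA 1. In HFD_HDCA against ND it was 1, and became 3 with DESeq2, 2 with the replicate block and 2 without HFD 1 and HFD_HDCA 1. Leaving out a library gave 0 to 2, 0 to 1 and 0 to 2 called members, and 32 to 226, 127 to 672 and 196 to 1213 called genes. Over all genes, DESeq2 called 362, 1036 and 1321 in place of 120, 428 and 815, and leaving out HFD 1 and HFD_HDCA 1 gave 576, 977 and 1157. FPKM at a pseudocount of 0.1 turned the split of HFD_HDCA against HFD from 210 up and 218 down to 135 up and 361 down, with the median of all genes at -0.11, and at 0.11 in HFD against ND. The cause of these differences was not tested.

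The members and the list genes past the threshold in the main fit were recomputed in the 17 alternatives. No called value of these genes turned its direction. Among the uncalled values of the same genes 44 changed sign, of 918 gene values recomputed. Other genes named in the text were outside this tally. Lcn2 in HFD_HDCA against HFD went from a log2 fold change of 3.46 to -1.73 without HFD 1 and HFD_HDCA 1 together (edgeR adjusted p = 0.0419). Orm1 in HFD_HDCA against ND went from 0.68 to -1.35 without HFD_HDCA 1 (edgeR adjusted p = 0.0261). Libraries with the same number do not form pairs by the labels, and correlations of their deviations ran from -0.149 to 0.153. With the replicate block the adjusted p of Hamp2 in HFD against ND was 0.107, that of Tfrc in HFD_HDCA against HFD 0.0221 and against ND 0.0487. Not every library correlated best with its own number. With 3 livers a group, Hamp2 in ND rests on 81 to 122 reads a library, and Il6 and Fam132b are at or near 0.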
